A study of Selaginella moellendorffii with 8 samples.

Results

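The 86 gene models described here stood at a higher level in all 6 libraries of the shoot tip, the root and the rhizophore of Selaginella moellendorffii, a lycophyte, than in either library of its leaf. They were selected on their measured levels from 25004 models in all. Among these, 8533 reached at least 5 CPM (read counts put on a common library total, with TMM scaling between libraries) in all 6 libraries of the 3 growing organs, and 8522 of these were also less than 4 times as high in the lower shoot library as in the higher leaf library. These were ranked by the lowest of the 6 values over the higher leaf value, each plus 1 CPM, and the 86 with a ratio above 1.2 were kept. The difference from leaf was thus used to choose them, so it is described without a test.

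RNA came from untreated plants propagated from stem cuttings, with 2 libraries per organ and 40 pooled pieces of tissue per library. The shoot samples were the outermost part of young green shoots, 10 to 20 days after branching, which had already formed microphylls. The roots, which had a cap and hairs, were 10 to 20 days of age and measured 5 to 10 cm, and the rhizophores were 4 to 7 days of age and measured 2.5 to 3.5 cm, without a cap, hairs, green colour or microphylls. The leaf samples were whole microphylls 10 to 14 days old, and no group was mutant or treated. Organ and age cannot be told apart for the rhizophore, and in such tissue pieces fewer cells of a type and less RNA per cell cannot be told apart either. The 2 libraries of an organ are biological repeats per the labels, which name no separate plants, so p-values cover only the spread among these samples, which may be technical.

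Shoots, roots and rhizophores of Selaginella are axes that lengthen from a growing tip, where a meristem divides and supplies new cells. The rhizophore is a leafless axis that arises from an angle meristem at a fork of the stem, grows downwards and later bears roots. The microphyll is a small leaf with a single vein that stops growing once it is mature. Genes used at growing tips and little used in finished leaves include, in plants in general, those for DNA replication, cell division and the building of new walls. The table gives its models numbers without names or functions, and 0 of 25004 matched the reference table, so which of these groups the 86 belong to was not analysed here, and neither sequence nor position is given. Of the 86, 73 had numeric names and 13 (15.1%) had names starting in Smoe, a group that held 2719 models of the whole table.

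The libraries were of unequal depth, and leaf replicate 1 was the shallowest. Totals ranged from 10063538 to 27891111 counts in the 6 libraries of the growing organs, and were 2826533 in leaf replicate 1 and 16058139 in leaf replicate 2. The smallest count listed above 0 was 5, worth 2.15 CPM in leaf replicate 1 and 0.438 CPM in leaf replicate 2, so up to 4 reads may lie behind a listed 0. The library labelled rhizophore replicate 2 was treated in another way in the authors' deposited table of organ averages, where a fit gave it 49.6% of the weight of the Root average and 0.65% of that of the Rhizophore average. It keeps its label here, and the counts and medians of rhizophore against root are also given without it.

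The step from leaf to the growing organs was small for most of the 86 models and was least in the shoot. The lowest of the 6 values was 1.30 times the higher leaf value at the median, with a range from 1.21 to 2.75 times. On the log2(CPM + 1) scale the mean level exceeded that of leaf by a median of 0.64 in shoot (0.28 to 2.12), 1.38 in root (0.38 to 3.51) and 1.78 in rhizophore (0.64 to 5.08), or 1.54 in rhizophore replicate 1 alone. A shoot library was the lowest of the 6 for 66 models, 22 of them with shoot replicate 1 and 44 with replicate 2. By organ mean, shoot was the lowest of the 3 growing organs for 76 models (88.4%), against 34.5% of the 8533. The rule held a limit on shoot, without which 88 models would have qualified, and the same floor above leaf under every growing organ. Their part in the low place of shoot was not tested, so that place is only described. The models were modest in level, with a median of 20.4 CPM over the 6 libraries against 36.6 CPM over the 8533. Together they took 0.0846% and 0.0815% of shoot counts, 0.391% and 0.356% of root counts, 0.324% and 0.529% of rhizophore counts, and 0.0568% and 0.0623% of leaf counts. These are shares of counts before TMM scaling, unlike the CPM values. The TMM factors were 0.636 and 0.634 in shoot, 1.52 and 1.74 in root, 1.24 and 1.30 in rhizophore, and 0.822 and 0.711 in leaf.

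**Figure D1:**
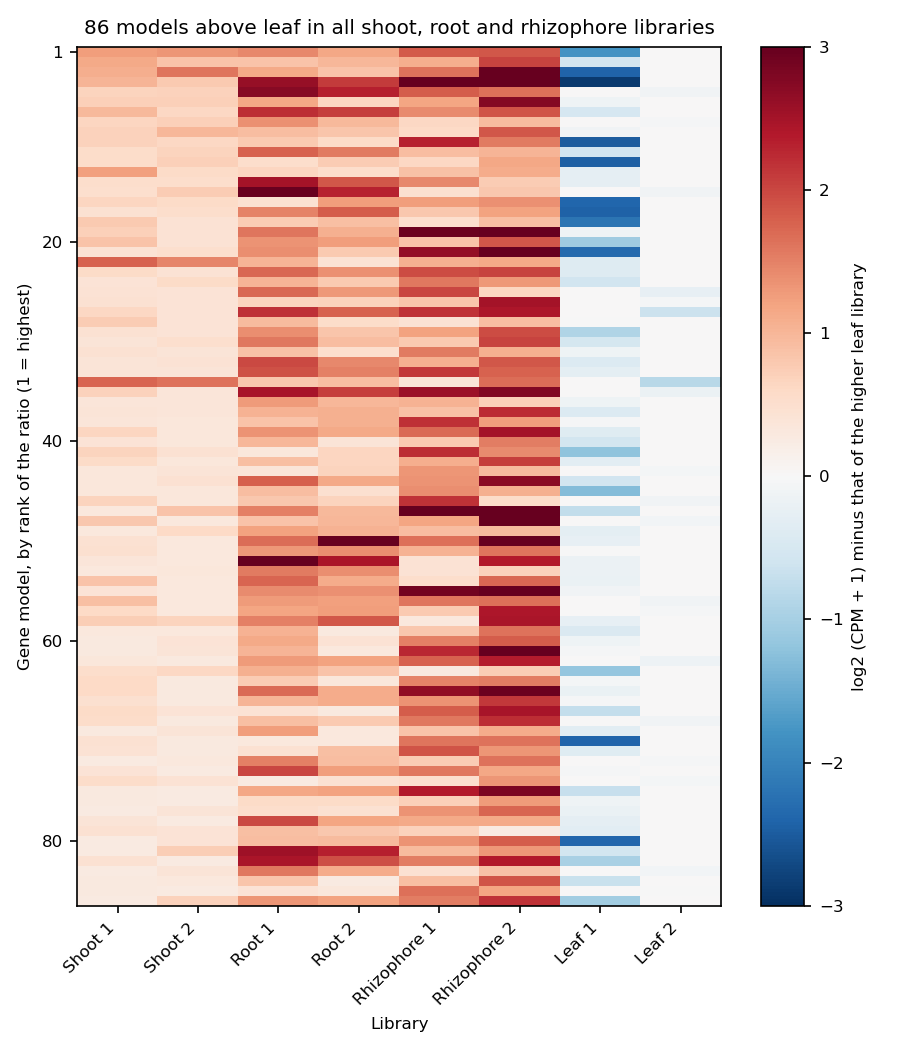
Each row is 1 of the 86 models, ordered by ratio, and each column is a library; colour gives log2(CPM + 1) minus that of the higher leaf library, and values beyond 3 in either direction share the end colours. The shoot columns are the palest of the 6 growing-organ columns, the library labelled rhizophore replicate 2 is the highest of the 6 for 49 models, and the 11 darkest blue cells are models listed at 0 in leaf replicate 1.

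The leaf values rested on few reads. Leaf replicate 1 gave 0 to 117 counts per model with a median of 12.5, leaf replicate 2 gave 28 to 626 with a median of 80.5, and 11 of the 86 models were listed at 0 in leaf replicate 1. Leaf replicate 2 was the higher leaf library for 67 models and replicate 1 for 19. Without leaf replicate 2 the rule admitted 964 models and without leaf replicate 1 it admitted 164, against 86 with both. Other libraries mattered too, since it admitted 199 and 275 models without shoot replicate 1 or 2, and 85 to 110 without 1 of the root or rhizophore libraries.

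The model with the highest ratio, 407008.v1, was at 7.26 and 7.62 CPM in shoot, 8.34 and 6.75 CPM in root, 11.4 and 11.7 CPM in rhizophore, and 0 and 2.45 CPM in leaf (replicates 1 and 2 in each case). It was low everywhere, with the rhizophore libraries above the rest and all 6 growing-organ libraries apart from leaf. The second, 411201.v1, was at 9.13 and 7.31 CPM in shoot, 7.33 and 8.09 CPM in root, 8.75 and 17.9 CPM in rhizophore, and 2.15 and 3.59 CPM in leaf. Shoot and root overlapped there, and the library labelled rhizophore replicate 2 stood above the other 5. The third, 154058.v1, was at 10.3 and 15.1 CPM in shoot, 10.7 and 8.54 CPM in root, 15.3 and 84.0 CPM in rhizophore, and 0 and 4.29 CPM in leaf. Its high rhizophore mean, 49.7 ± 48.5 CPM (SD, n = 2), came from 1 library.

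The fourth model, Smoe_00041011, was at 13.8 and 11.5 CPM in shoot, 44.1 and 30.1 CPM in root, 80.2 and 199.8 CPM in rhizophore, and 0 and 6.31 CPM in leaf. The libraries of no organ overlapped with those of another, but none of its 3 comparisons among growing organs passed the threshold (rhizophore against shoot had a log2 fold change of 3.47, standard error 1.02, edgeR adjusted p = 0.0556; 8.4e-41 to 0.309 over 13 alternatives, 7 of them past the threshold, among them those without either rhizophore or either leaf library). The fifth, 80205.v1, was at 7.37 and 7.52 CPM in shoot, 34.1 and 25.8 CPM in root, 17.7 and 15.6 CPM in rhizophore, and 4.31 and 3.94 CPM in leaf. Here root was the highest organ, no organ overlapped with another, and replicates lay closer together. Its log2 fold change of root against shoot was 2.01 (standard error 0.40, edgeR adjusted p = 0.011; 2.5e-09 to 0.137 over 13 alternatives), a call that ended without shoot replicate 1 or 2 or root replicate 1. The next 5 in rank, 166630.v1, 419388.v1, 404192.v1, 439571.v1 and 232741.v1, had ratios of 1.497 to 1.562, and in 419388.v1 and 404192.v1 both root libraries were above all shoot and rhizophore libraries. Of the first 10 models, 407008.v1, 154058.v1, Smoe_00041011 and 232741.v1 were listed at 0 in leaf replicate 1.

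**Figure D2:**
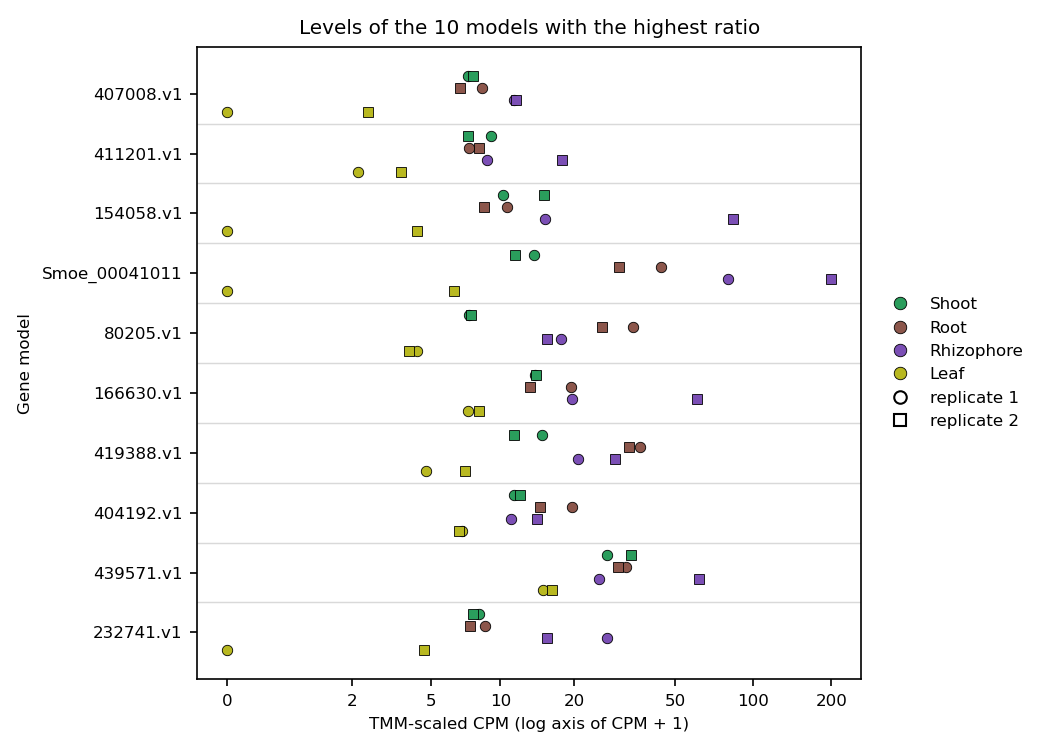
TMM-scaled CPM in each library (log axis of CPM + 1) for the 10 models with the highest ratio, with circles for replicate 1 and squares for replicate 2. All leaf points lie to the left of the other 6 points of the same model, and the rhizophore points of 154058.v1 lie at 15.3 and 84.0 CPM.

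Models at the edge of the choice differed little across it. The last inside, Smoe_00040303, 271126.v1 and 121159.v1, had ratios of 1.205, 1.204 and 1.203, and the first outside, 409080.v1, 77425.v1 and 117874.v1, had ratios of 1.1997, 1.1991 and 1.1989. The limit on shoot kept out 2 models with ratios of 1.55 and 1.29, so that 88 would have qualified without it, a setting chosen after seeing the data. Of the 8533 models, 495 (5.80%) were above both leaf libraries in all 6 by any margin, and 185 (2.17%) were below both leaf libraries in all 6.

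The place of the 86 models over leaf held in root and rhizophore under each scaling tried and was less firm in shoot. With DESeq2's size factors all 86 stayed above both leaf libraries in all 6, and 66 passed the whole rule again. With CPM from total counts, without a scaling factor, 75 stayed above leaf in shoot and all 86 did so in root and in rhizophore. Of the 86, 14 then passed the whole rule. The lowest of the 6 was then 1.14 times the higher leaf value at the median, against 1.30 times under TMM and 1.29 times with DESeq2's size factors. The rule also holds a minimum CPM and the limit on shoot, so 66 and 14 are not counts of ratios above 1.2. In the authors' deposited table of averages all 86 had Shoot, Root and Rhizophore averages above the Leaf average, and the median ratio was 1.53, where averages replace the lowest and highest libraries. These values come from the reads that chose the models and are no separate support.

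**Figure D3:**
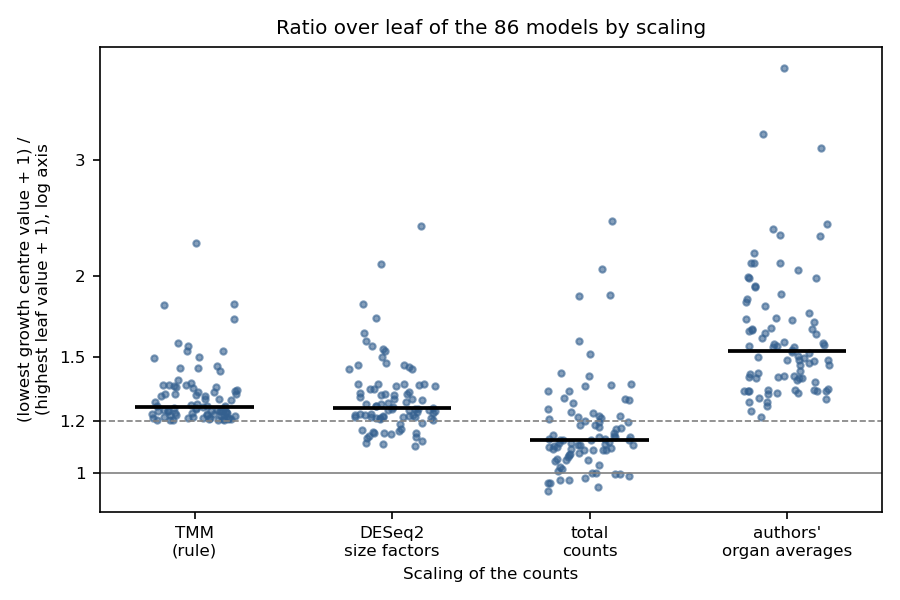
Ratio of the lowest growing-organ value plus 1 to the highest leaf value plus 1 (log axis) for the 86 models under 4 scalings, 1 point per model with a bar at the median; the solid line is at 1 and the dashed line at 1.2. The points all lie above 1.2 under TMM by the rule and in the authors' averages, and 11 lie at or below 1 with CPM from total counts.

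The rule set the same floor under root and rhizophore and did not use the difference between them, which was tested. A model low in either organ could not qualify, so the comparison covers models above that floor in both. Of the 86 models, 12 were higher in rhizophore than in root and 2 were lower, by edgeR's quasi-likelihood test on all 8 libraries at a Benjamini-Hochberg adjusted p under 0.05 over all 23662 models tested. These are 16.3% of the 86, against 36.6% called among all models tested (11.8% higher and 24.8% lower) and 33% (22.6% higher and 10.4% lower) among the 8533 models of at least 5 CPM in all 6 libraries. The median log2 fold change was 0.50 for the 86, -0.50 for all models tested and 0.35 for the 8533, and without the library labelled rhizophore replicate 2 these became 0.11, -0.91 and 0.07. The 2 rhizophore libraries lay above the 2 root libraries without overlap for 43 models (50%, against 22.9% of all models and 38.8% of the 8533) and below them for 15 (17.4%, against 45.8% and 22.9%). With rhizophore replicate 1 as the only rhizophore library, a setting chosen after seeing the data, it lay above both root libraries for 46 models (53.5%, against 32.8% of all models and 49.7% of the 8533) and below both for 30 (34.9%, against 56.3% and 36.8%).

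Leaving out 1 library also moved the calls among all models tested. The number called higher in rhizophore moved the same way as among the 86, and the number called lower fell each time. The 12 and 2 depended on single libraries. They became 14 and 8 without the library labelled rhizophore replicate 2, 10 of the 12 among them, and 28 and 3 without rhizophore replicate 1. They were 3 and 1 without root replicate 1, 0 and 1 without root replicate 2 (9 and 7 with edgeR's p under 0.05 before adjustment), and 6 and 2 without shoot replicate 1 or 2. The rhizophore libraries themselves were uneven for these models: replicate 2 was above replicate 1 for 68 of the 86 (79.1%, against 55.7% of the 8533), with a median ratio of 1.39 against 1.09. The part of this in the result was tested only by leaving each library out.

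Of the models higher in rhizophore than in root, 77297.v1 had the largest difference. It was at 74.1 and 91.2 CPM in rhizophore, 22.04 and 15.0 CPM in root, 3.88 and 7.10 CPM in leaf, and 9.13 and 13.6 CPM in shoot. The rhizophore libraries stood above all others and agreed well, with a mean of 82.7 ± 12.1 CPM (SD, n = 2) against 18.5 ± 4.98 CPM in root. The log2 fold change was 2.16 (standard error 0.42, edgeR adjusted p = 0.00646; 9.0e-10 to 0.0755 over 13 alternatives, 12 of them past the threshold), and the call ended without root replicate 2.

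The most abundant of the 86, 441314.v1, was next. It was at 251 and 492 CPM in rhizophore, 106 and 64.8 CPM in root, 50.4 and 51.7 CPM in leaf, and 63.9 and 67.5 CPM in shoot. Shoot, leaf and root replicate 2 were close together and both rhizophore libraries stood well above them. The log2 fold change against root was 2.12 (standard error 0.41, edgeR adjusted p = 0.00666; 7.6e-19 to 0.0897 over 13 alternatives), and this call too ended without root replicate 2. Its Root average of 300.6 in the authors' deposited table exceeded its Rhizophore average of 262, and that Root average includes the library labelled rhizophore replicate 2.

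The 2 models lower in rhizophore than in root were Smoe_00017930 and 170362.v1. Smoe_00017930 was at 164 and 104 CPM in root, 28.4 and 36.3 CPM in rhizophore, 20.2 and 18.7 CPM in leaf, and 28.9 and 34.9 CPM in shoot. Both root libraries were far above the rest, while shoot and rhizophore overlapped. The log2 fold change of rhizophore against root was -2.05 (standard error 0.36, edgeR adjusted p = 0.0038), past the threshold in all 13 alternatives (5.5e-12 to 0.0394). The model 170362.v1 was at 110 and 95.7 CPM in root, 35.7 and 46.2 CPM in rhizophore, 12.1 and 18.1 CPM in leaf, and 22.1 and 31.1 CPM in shoot. Its order was root, rhizophore, shoot and leaf with no overlap, and its log2 fold change of -1.33 (standard error 0.36, edgeR adjusted p = 0.027) passed in 10 of 13 alternatives (2.3e-06 to 0.0993), not without root replicate 1 or 2 or with the 4 libraries alone.

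**Figure D4:**
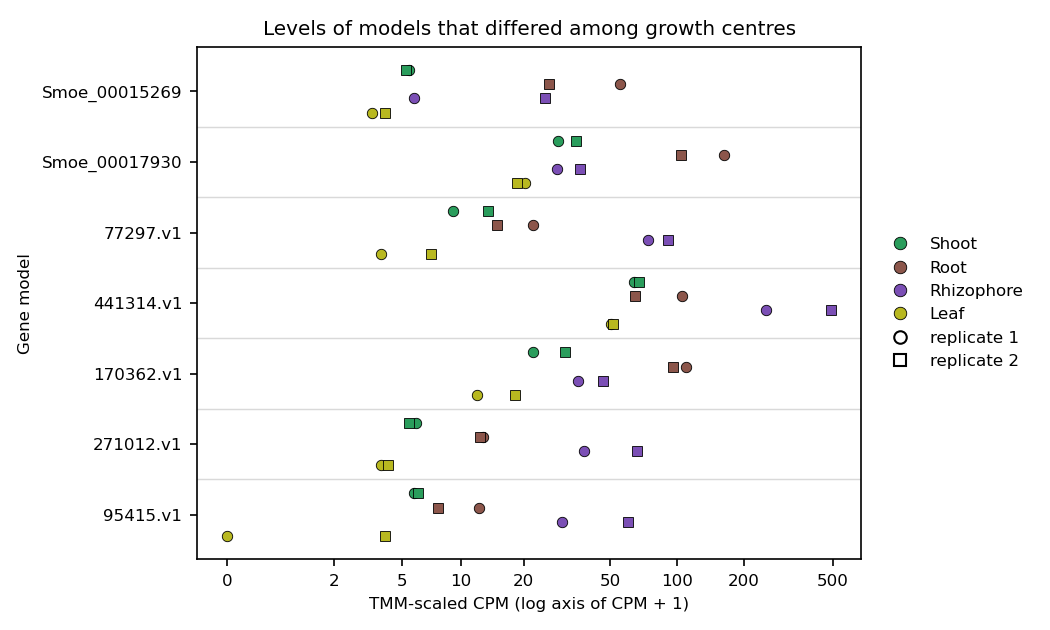
TMM-scaled CPM in each library (log axis of CPM + 1) for the 7 models named for a difference among the growing organs, circles for replicate 1 and squares for replicate 2. The rhizophore points stand to the right for 77297.v1, 441314.v1, 271012.v1 and 95415.v1, and the root points do so for Smoe_00015269, Smoe_00017930 and 170362.v1.

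Comparisons with shoot are bound up with the rule. Shoot lay just above leaf for most of the 86, and the rule set a floor just above leaf under root and rhizophore, so models with root or rhizophore below shoot could seldom qualify. The counts are therefore given without reading a direction from them. Root was higher than shoot in 13 models and lower in 0 (25 and 1 with edgeR's p under 0.05 before adjustment, 27 and 0 with DESeq2's test), against 5.24% higher and 8.4% lower among all models tested and 5.48% and 15% among the 8533. Rhizophore was higher than shoot in 24 and lower in 0 (48 and 0 before adjustment in edgeR's test, 48 and 0 with DESeq2's test), against 10% higher and 11.8% lower among all models and 16.4% and 14.9% among the 8533. The median log2 fold changes of the 86 were 0.69 for root and 1.16 for rhizophore against shoot, beside 0.64 and 0.00 for all models tested and -0.14 and 0.19 for the 8533.

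These counts too moved with single libraries. In each fit named here with a library left out, the number called higher among all models tested moved in the same direction. Root above shoot was called for 0 models without shoot replicate 1, shoot replicate 2 or root replicate 1 (13, 12 and 24 with edgeR's p under 0.05 before adjustment), for 7 without root replicate 2 or either leaf library, and for 49 and 48 without rhizophore replicate 1 or 2. Rhizophore above shoot was called for 7 and 5 without shoot replicate 1 or 2, and for 57 and 41 without rhizophore replicate 1 or 2. DESeq2's size factors moved the median of all models for root against shoot from 0.64 to 0.81 and that of the 86 from 0.69 to 0.86.

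The largest called difference from shoot was that of 271012.v1 in rhizophore. It was at 38.0 and 66.2 CPM in rhizophore, 12.8 and 12.5 CPM in root, 3.88 and 4.21 CPM in leaf, and 5.91 and 5.46 CPM in shoot. Each organ was apart from the next, and replicates agreed closely except in rhizophore. The log2 fold change against shoot was 3.20 (standard error 0.43, edgeR adjusted p = 0.000905; 3.3e-18 to 0.0412 over 13 alternatives), and against root it was 2.04 (standard error 0.40, adjusted p = 0.00695, past the threshold in 11 of 13, the exceptions being without root replicate 1 or 2; 4.0e-08 to 0.0781). The model 95415.v1 was at 30.04 and 60.3 CPM in rhizophore, 12.2 and 7.68 CPM in root, 0 and 4.03 CPM in leaf, and 5.81 and 6.08 CPM in shoot. Its rhizophore libraries were above the rest, but the call against shoot (log2 fold change of 2.92, standard error 0.87, edgeR adjusted p = 0.0479) passed in 8 of 13 alternatives (8.4e-15 to 0.259) and ended without either shoot or either root library and with the replicate block.

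The largest called difference between root and shoot was that of Smoe_00015269. It was at 55.3 and 26.3 CPM in root, 5.50 and 5.25 CPM in shoot, 5.78 and 25.2 CPM in rhizophore, and 3.44 and 4.03 CPM in leaf. The library labelled rhizophore replicate 2 lay near the root and replicate 1 near the shoot. The log2 fold change of root against shoot was 2.92 (standard error 0.69, edgeR adjusted p = 0.0246; 5.6e-18 to 0.169 over 13 alternatives, 7 of them past the threshold), and the call ended without any 1 of the shoot, root or leaf libraries. The same comparison gave 2.07 (standard error 0.36, edgeR adjusted p = 0.00611; 4.7e-20 to 0.0963) for Smoe_00017930, a call that ended without shoot replicate 1 or 2 or root replicate 1.

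**Figure D5:**
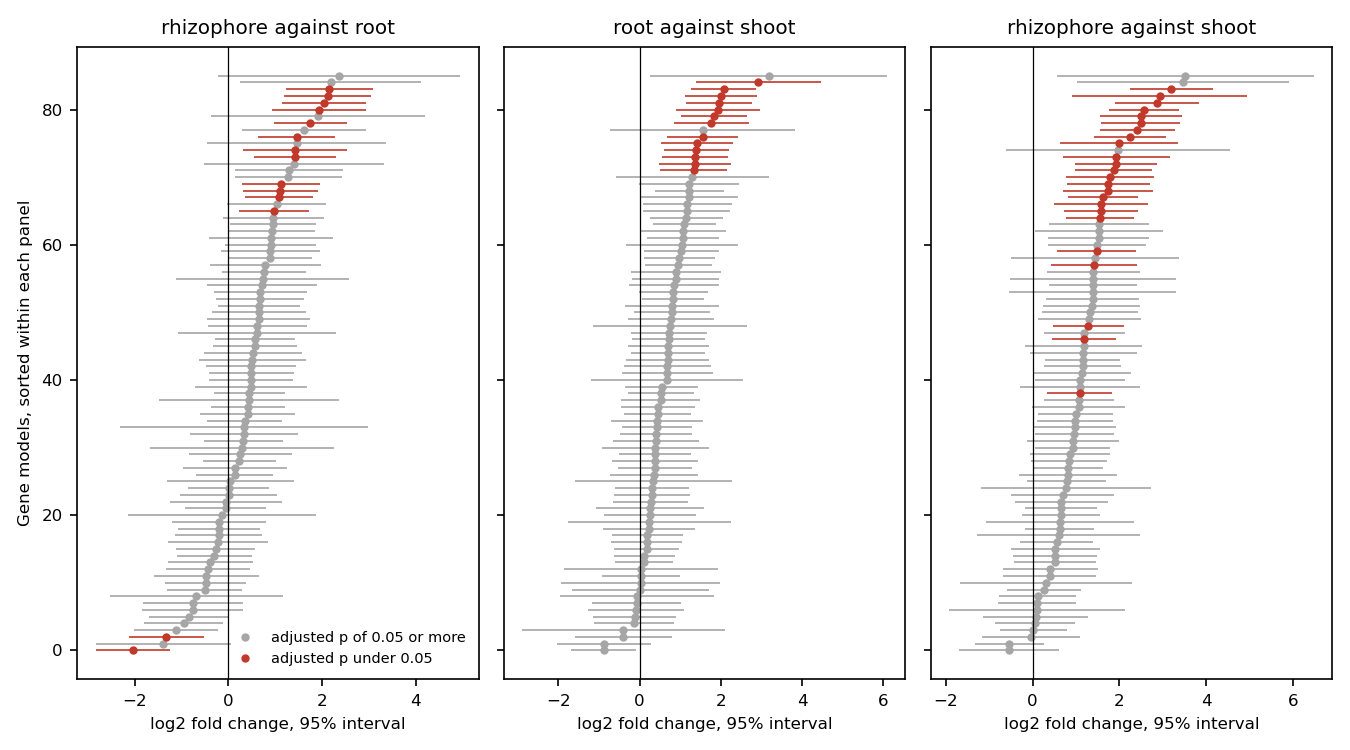
Log2 fold changes of the 86 models in the 3 comparisons among growing organs with 95% intervals from edgeR's fit, sorted within each panel, in red where the adjusted p was under 0.05. The red points number 14 for rhizophore against root (12 to the right of 0 and 2 to the left), 13 for root against shoot and 24 for rhizophore against shoot.

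Of the 12 models called higher in rhizophore than in root, 11 were also called higher than in shoot, where the limit on comparisons with shoot applies. These are 12.8% of the 86, against 4.89% of all models tested and 9.73% of the 8533. Their median organ means were 10.3 CPM in leaf, 14.7 CPM in shoot, 20.1 CPM in root and 56.8 CPM in rhizophore, and 77297.v1, 441314.v1 and 271012.v1 were among them. The number of the 11 past both thresholds ranged over the 13 alternatives from 0 without root replicate 2 to 11, and was 9 without the library labelled rhizophore replicate 2, 3 without root replicate 1 or with the 4 libraries of each comparison alone, 5 without shoot replicate 1 or 2 and 7 without either leaf library. In the authors' deposited table the Rhizophore average was above the Shoot average for all 11 and above the Root average for 9.

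At least 1 of the 3 comparisons was called for 34 of the 86 models (39.5%), against 48.3% of all models tested and 50.8% of the 8533. The other 52 had median organ means of 10.9 CPM in shoot, 14.7 CPM in root, 18.3 CPM in rhizophore and 5.62 CPM in leaf. That does not show that they were level, since calls moved with single libraries, both for the 86 and for all models tested. Of the 86, 11 (12.8%) lay within 2-fold over the 6 libraries, beside 11.7% of the 8533, and the highest of the 6 was 3.24 times the lowest at the median, beside 3.69 times for the 8533.

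The most even was 77385.v1, at 6.95 and 5.25 CPM in shoot, 6.80 and 7.55 CPM in root, 5.46 and 7.58 CPM in rhizophore, and 0 and 3.59 CPM in leaf. All 3 growing organs overlapped, at a level little above the minimum of the rule. Even here the 95% interval of rhizophore against root ran from -2.14 to 1.86 on the log2 scale, so a 4-fold difference lay within it. The model 416778.v1 was better measured, at 19.8 and 15.2 CPM in shoot, 22.7 and 17.0 CPM in root, 15.5 and 22.5 CPM in rhizophore, and 11.2 and 11.3 CPM in leaf. Its intervals were -0.70 to 1.05 for root against shoot, -0.93 to 0.81 for rhizophore against root and -0.760 to 0.997 for rhizophore against shoot. The next most even were Smoe_00028637, 418877.v1 and 98890.v1, with a highest value 1.61 to 1.73 times the lowest.

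Among the 5 most abundant of the 86, 109593.v1 was the most level. It was at 67.2 and 71.7 CPM in shoot, 131 and 68.9 CPM in root, 99.6 and 120 CPM in rhizophore, and 43.9 and 54.9 CPM in leaf. Root replicate 1 was the highest library and root replicate 2 lay with shoot, so that the spread within root exceeded the step from shoot to root. No model of the 86 formed a pair with another model whose counts lay within 0.1 log2 in all 8 libraries, a comparison made among models with a mean of at least 100 counts.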

How the data were processed

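Per the file headers, the authors deposited 2 tables: unnormalized counts of reads for every library, and a normalized signal averaged over the libraries of each organ. Bowtie2 (alignment) and edgeR are named, without versions, in the submitters' processing notes. Genome build, annotation, counting tool and how the averages were normalized: not given in the sources used here. Here, the rule's levels are CPM with edgeR's TMM factors computed on all 25004 rows. Tests used edgeR 4.0.16 in R 4.3.3: filterByExpr (23662 models kept, 1342 removed), TMM, the robust quasi-likelihood test with a term per organ on all 8 libraries, and Benjamini-Hochberg adjustment over all models tested. Each standard error was the log2 fold change divided by the root of its F statistic. Alternatives were DESeq2 1.42.0 (size factors, or its own test), no filter, a replicate block, the 4 libraries of a comparison alone, and each library left out, 13 fits in all, with a stricter threshold and 16 other settings of the rule (1 chosen after seeing the data).

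The weights of libraries in the authors' averages are a non-negative fit to the 8 TMM-scaled columns. The 86 models, the rule and the comparisons were chosen with earlier results of these data known. Named models were the 10 of highest ratio, the 5 of highest mean, the 5 most even, up to 2 per comparison and direction with the largest called difference and no overlap (up to 4 had been planned, and fewer are given because the models have no names), and 3 on each side of the limit. The 15 product-name lists planned could not be applied, since no model is annotated. Precision of single counts covers counting error only.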

Additional observations from a re-analysis of the deposited data

How the results depend on the processing

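The count of models passing the rule was 86 and became 78 with DESeq2's size factors, 47 with total counts, 147 and 43 at minimums of 2 and 10 CPM, 94 and 36 with pseudocounts of 0.5 and 5, 870 with organ means, and 85 to 964 with 1 library left out. Scaling factors were then computed anew, so that 63 of the 86 passed without the library labelled rhizophore replicate 2. For root against shoot, 13 higher became 2 at an adjusted p under 0.01, 27 with DESeq2's test, 8 with the replicate block, 33 (with 2 lower) with the 4 libraries alone, and 0 to 49 higher and 0 to 1 lower with 1 library left out. For rhizophore against root, 12 higher and 2 lower became 4 and 1 at an adjusted p under 0.01, 12 and 5 with DESeq2's test, 8 and 2 without a filter, 7 and 2 with the replicate block, 6 and 1 with the 4 libraries alone, and 0 to 28 and 1 to 8 with 1 library left out. For rhizophore against shoot, 24 higher became 8 at an adjusted p under 0.01, 48 with DESeq2's test, 33 with DESeq2's size factors, 18 with the replicate block, 9 with the 4 libraries alone, and 5 to 57 higher and 0 to 1 lower with 1 library left out. The 43 and 15 models without overlap between rhizophore and root became 46 and 30 without the library labelled rhizophore replicate 2. Medians of the 86 ranged over libraries left out from 0.62 to 0.97 for root against shoot, 0.11 to 0.58 for rhizophore against root and 0.94 to 1.36 for rhizophore against shoot, positive in each. Of 1008 alternative values of the named models, 906 kept their side of the threshold, 62 newly passed it, 40 no longer did, and 0 reversed a call. The 906 include values past the threshold in neither fit, so they do not measure how stable the calls were. Replicate numbers gave no sign of pairing: deviations of same-numbered libraries correlated at -0.01 to 0.07 between organs. Whether same-numbered libraries shared plants or a batch was not tested. Leaf depth limits the leaf level, and the cause of these shifts was not tested.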
